A study of Mus musculus with 4 samples.

Results

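Goblet cell genes and their regulators were examined on 4 Affymetrix arrays of RNA from mouse colon adenoma organoids. The members were 10 genes chosen by name: the transcription factor genes Atoh1, Spdef, Gfi1, Foxa3 and Creb3l1, and the genes of secreted or secretory-pathway proteins Tff3, Agr2, Fcgbp, Zg16 and Spink4. All 10 were annotated on the array, through 12 of its 45037 probe sets without controls, and they stand among 17097 named genes. A filter on dim genes, at a mean of 4.45 log2 units, left 11874 genes to test, and 8 of the 10 members passed it. Gfi1 and Zg16 did not.

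The organoids are 3D cultures of tumour epithelium on a C57BL/6 background. The 2 arrays labelled Gata6 null/Apc null came from VillinCreERT2 Gata6 fl/fl Apc fl/fl organoids, and the 2 labelled Apc null came from VillinCreERT2 Gata6+/+ Apc fl/fl organoids. Both groups therefore carry the floxed Apc alleles and the Cre recombinase, a tamoxifen-inducible enzyme expressed from the Villin promoter in intestinal epithelium. Both were cultured for 7 days with 50 ng/ml EGF. Batches A and B each supplied 1 array per group, and the labels do not say what a batch was or whether replicates came from separate mice.

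Goblet cells make and store mucus. In the intestine, progenitors that escape Notch signalling express Atoh1, the basic helix-loop-helix factor needed for all secretory lineages. Gfi1 then holds cells on the goblet and Paneth path, and Spdef, an ETS factor, drives goblet maturation. Foxa3 is a forkhead factor linked to mucous cell genes in airway epithelium, and Creb3l1 is a membrane-bound factor of the endoplasmic reticulum that is cut and moves to the nucleus in secretory cells. Agr2 is a protein disulfide isomerase relative needed to fold mucin, and the remaining products reach the mucus layer. Gata6 encodes a zinc finger factor of the endoderm, and Apc restrains Wnt signalling and is lost at the start of most adenomas.

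Promoter sequences are shown for Atoh1 and Agr2, which had lower means on arrays labelled Gata6 null/Apc null, and for Foxa3, which had a higher mean. They come from RefSeq on build GRCm38.p6 and span 250 bases before and 50 bases from the annotated start on. Of the 10 members, 6 had an entry, with 7 windows in all since Gfi1 had 2 starts. The members without an entry were Creb3l1, Tff3, Zg16 and Spink4. Of those with an entry, Spdef and Fcgbp also had lower means, and their windows are not shown. Capitals mark matches, on either strand, to 5 short motifs chosen after the sequences were seen: GATAA for GATA factors, CANNTG for basic helix-loop-helix factors, CTTTGAT for TCF/LEF factors, TGTTTNC for FOXA factors and TGACGTG for CREB3-type factors.
Atoh1, chr6:64728875-64729174, plus strand: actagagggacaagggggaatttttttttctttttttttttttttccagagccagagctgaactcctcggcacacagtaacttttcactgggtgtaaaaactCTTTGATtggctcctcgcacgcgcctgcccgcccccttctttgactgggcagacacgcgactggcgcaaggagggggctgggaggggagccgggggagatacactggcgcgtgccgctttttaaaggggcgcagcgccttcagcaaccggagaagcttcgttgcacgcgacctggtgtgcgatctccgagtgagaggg
Agr2, chr12:35992675-35992974, plus strand: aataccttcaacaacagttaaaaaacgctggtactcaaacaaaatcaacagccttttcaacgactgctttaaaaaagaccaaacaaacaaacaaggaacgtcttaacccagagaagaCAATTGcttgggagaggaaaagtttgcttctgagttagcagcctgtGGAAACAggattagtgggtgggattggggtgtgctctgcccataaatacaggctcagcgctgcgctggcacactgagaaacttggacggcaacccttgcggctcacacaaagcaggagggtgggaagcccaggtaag
Foxa3, chr7:19023490-19023789, minus strand: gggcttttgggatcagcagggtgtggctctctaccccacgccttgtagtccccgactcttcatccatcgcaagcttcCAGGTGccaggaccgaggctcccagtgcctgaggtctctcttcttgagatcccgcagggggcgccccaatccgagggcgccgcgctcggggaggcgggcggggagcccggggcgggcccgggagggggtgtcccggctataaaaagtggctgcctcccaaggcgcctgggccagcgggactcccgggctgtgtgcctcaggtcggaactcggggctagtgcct

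The Atoh1 window held 1 match, to CTTTGAT, starting 148 bases before the annotated start. That motif occurs in 3.73% of all 32851 promoter windows of the same length. The Agr2 window held 1 CANNTG match and 1 TGTTTNC match, motifs found in 72.3% and 20.5% of all windows, and the Foxa3 window held 1 CANNTG match. Spdef had 1 match to TGACGTG, found in 2.01% of windows, and Fcgbp had 4 to CANNTG. The motif GATAA, present in 25.4% of windows, was in none of the 7 windows of members, which says only that these letters are not in these stretches. No matches overlapped. A match is a run of letters and not a measured binding site.

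Array medians lay between 4.91 and 5.04 log2 units, and arrays correlated at 0.963 to 0.979 across probe sets. The highest correlation, 0.979, was between the genotypes within batch A, and within batch B it was 0.978. Differences below are on the log2 scale, with the Apc null mean subtracted from the Gata6 null/Apc null mean. The targeted gene did not check the labels. At its brighter probe set, Gata6 read 9.37 (batch A) and 9.40 (batch B) on arrays labelled Gata6 null/Apc null, against 8.89 and 8.61 on Apc null arrays. The place of that probe set relative to the deleted part is not given in the sources used here, and a probe set outside it would show nothing about the deletion. Every direction below thus rests on the labels. All 11 epithelial markers listed were tested, and Epcam read 11.29 and 11.53 against 11.36 and 11.48 on Apc null arrays. Epcam had the smallest absolute difference of the list, at -0.01, while all 11 had a negative difference and 8 were lower without overlap. Over all genes tested 55.9% had a negative difference and 17.3% were lower without overlap. The immune marker Ptprc was under the filter level on every array, at 3.16 and 3.25 against 3.07 and 3.12. Muc2, the main goblet mucin gene, had no probe set annotated to it alone, and the goblet product genes Clca1 and Retnlb had means under the filter. The brighter Clca1 probe set read 3.95 and 3.89 on arrays labelled Gata6 null/Apc null, against 5.33 and 4.39 on Apc null arrays. Goblet character in these cultures therefore rests on the other genes.

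Of the 8 members tested, 7 had lower means on arrays labelled Gata6 null/Apc null and 1, Foxa3, had a higher mean. In 6 the values of the groups did not overlap and were lower, and in 1 they did not overlap and were higher. Over all 11874 genes tested the groups did not overlap in 17.3% as lower and in 14.7% as higher. The median difference of the 8 members was -0.96, against -0.03 over all genes tested. It moved to -0.60 once Apc null A was left out and to -1.11 once Apc null B was. Limma, with Benjamini-Hochberg adjustment over all genes, called 1 member lower at an adjusted p under 0.05, Spink4, where 0.126% of all genes were called lower and 0.522% higher. With the batch as a block it called 4 members lower (Spink4, Agr2, Creb3l1 and Atoh1) and none higher, where 2.97% of all genes were called lower and 3.91% higher. In these bulk cultures fewer goblet-type cells and less RNA per cell cannot be told apart.

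**Figure D1:**
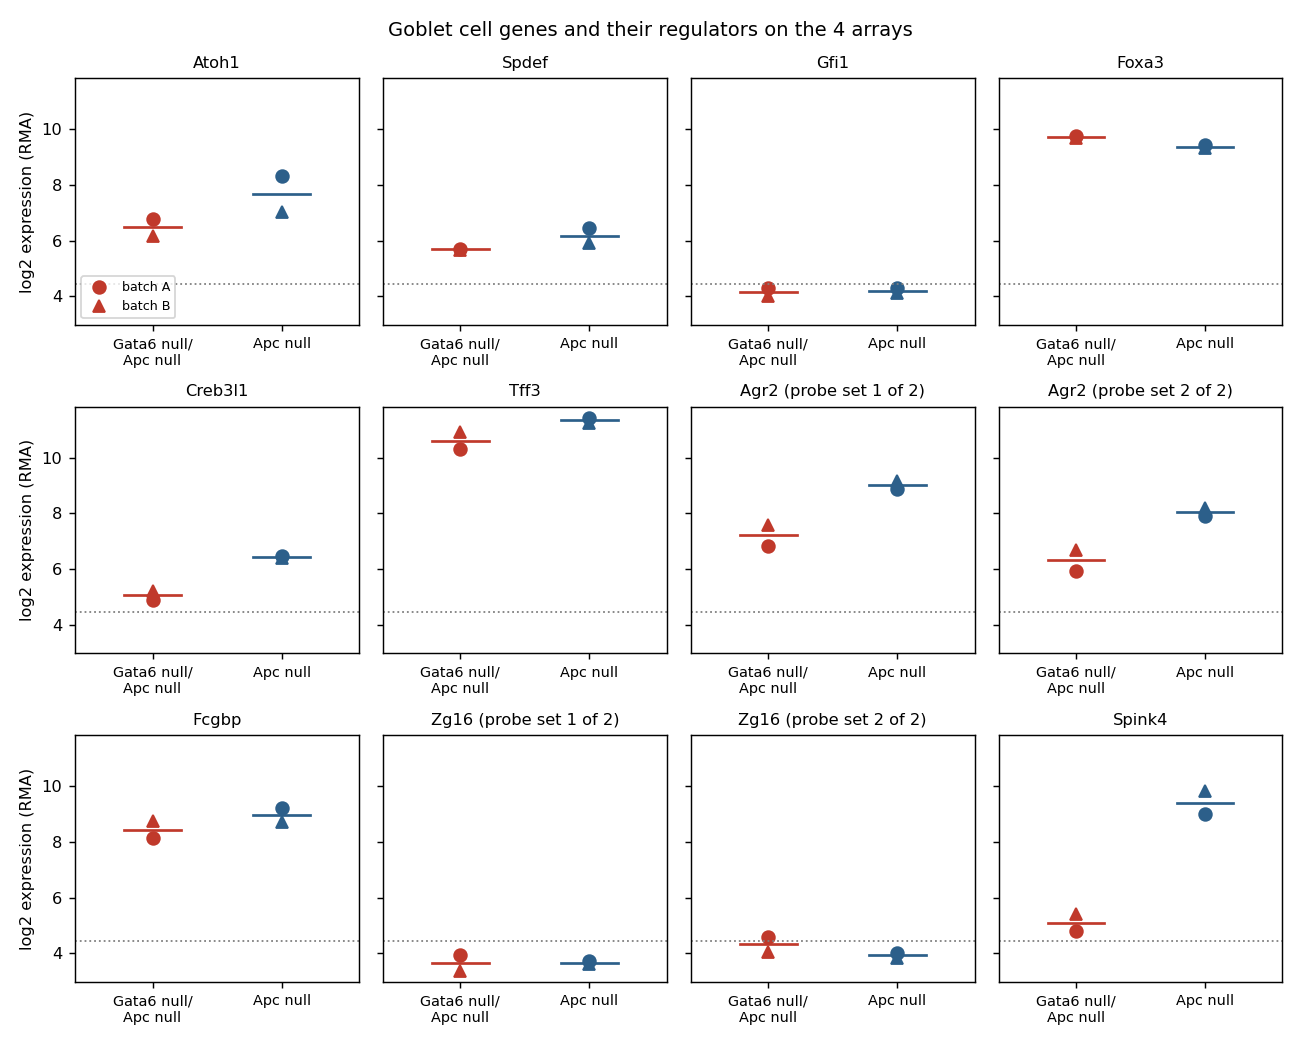
Log2 expression (RMA values, y axis) of the 12 probe sets of the 10 members on the 4 arrays; red points are arrays labelled Gata6 null/Apc null, blue points Apc null arrays, circles batch A, triangles batch B, short bars the group means and the dotted line the filter level of 4.45. Spink4 shows the widest gap, and the probe sets of Gfi1 and Zg16 lie near or under the dotted line.

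Among the regulators, Atoh1 read 6.78 (batch A) and 6.18 (batch B) on arrays labelled Gata6 null/Apc null, against 8.32 and 7.04 on Apc null arrays. The groups did not overlap, and both arrays of batch B were lower than their batch A counterparts, with differences, B minus A, of -0.60 for the label Gata6 null/Apc null and -1.28 for Apc null. Its difference was -1.20 (SE 0.51), a 2.30-fold lower level, which did not pass limma without the block (adjusted p = 0.707) and passed with it (limma adjusted p = 0.0309). Within batches it was -1.54 in A and -0.86 in B. The Apc null array of batch A carries much of this size: without it the difference was -0.56 (limma adjusted p = 1.00), and once Apc null B was left out it was -1.84.

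Creb3l1 read 4.91 and 5.21 on arrays labelled Gata6 null/Apc null, against 6.47 and 6.41 on Apc null arrays. Its groups stood well apart, and the Apc null arrays nearly coincided. The values on arrays labelled Gata6 null/Apc null were close to the filter level, so the fold of Creb3l1 depends on the array floor. A filter at the 60th percentile left the gene out. The difference was -1.38 (SE 0.22), a 2.61-fold lower level, with a limma adjusted p of 0.113, or 0.0127 with the batch as a block. It was -1.57 in A and -1.20 in B, and it stayed between -1.54 and -1.23 whichever array was left out.

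Spdef, the goblet maturation factor, had a smaller difference. It read 5.70 and 5.68 on arrays labelled Gata6 null/Apc null, against 6.45 and 5.91 on Apc null arrays, with no overlap but with most of the gap in batch A. The difference of -0.49 passed in neither limma fit (adjusted p = 0.888, and 0.273 with the block), and its 95% interval ran from -1.18 to 0.20. Its within-batch differences were -0.75 in A and -0.22 in B. Leaving out Apc null A gave -0.22, and leaving out Apc null B gave -0.76.

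Foxa3 was the member with a higher mean on arrays labelled Gata6 null/Apc null, at 9.74 and 9.69, against 9.43 and 9.32 on Apc null arrays. The groups did not overlap, and the difference of 0.34 (SE 0.15) was alike in batch A (0.31) and batch B (0.38). It passed neither limma fit (adjusted p = 0.734, and 0.109 with the block). The 95% interval ran from -0.05 to 0.74.

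Gfi1 was dim throughout. Its single probe set read 4.32 and 3.999 on arrays labelled Gata6 null/Apc null, against 4.31 and 4.12 on Apc null arrays, and all 4 values lay under the filter level. In the fit over all 45037 probe sets with no filter its difference was -0.05 (limma adjusted p = 1.00, 95% interval -0.49 to 0.39). At this signal a difference in Gfi1 was not detectable, which does not show that the gene was off.

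Agr2, the mucin-folding factor, was measured by both of its probe sets with the same outcome. The brighter one read 6.84 and 7.58 on arrays labelled Gata6 null/Apc null, against 8.89 and 9.15 on Apc null arrays. The other, whose name marks probes that can match shared sequence, read 5.94 and 6.69 against 7.90 and 8.20. Neither overlapped, and in each genotype the array of batch B was the higher. The brighter probe set differed by -1.81 (SE 0.33), a 3.50-fold lower level, with a limma adjusted p of 0.153 and 0.00349 under the block. The other probe set differed by -1.73 in the fit over all probe sets (limma adjusted p = 0.345, and 0.00302 with the block). The gene's difference was -2.05 in A and -1.57 in B.

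Spink4, a Kazal-type protease inhibitor gene of goblet cells, had the widest gap of the members. It read 4.81 and 5.40 on arrays labelled Gata6 null/Apc null, against 8.99 and 9.81 on Apc null arrays. These first 2 values were close to the filter level, so the fold depends on the array floor. The difference was -4.30 (SE 0.40), a 19.7-fold lower level, with a limma adjusted p of 0.0314 and 0.000238 with the block. It was -4.18 in A and -4.42 in B. Spink4 passed under all 11 alternatives of the fit over genes, with adjusted p-values up to 0.0493, that of the fit with Apc null B left out. In the fit over all 45037 probe sets without a filter, where 0.0200% were called lower, it did not pass (limma adjusted p = 0.0625). With the block that fit called 5 of the 12 member probe sets lower, those of Atoh1, Creb3l1, Agr2 (both) and Spink4, where 1.39% of all probe sets were.

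Tff3, the trefoil peptide secreted with mucus, stayed bright in both groups. It read 10.30 and 10.93 on arrays labelled Gata6 null/Apc null, against 11.42 and 11.26 on Apc null arrays. There was no overlap, but the array labelled Gata6 null/Apc null of batch B came near the Apc null values. The difference was -0.72 (SE 0.23), a 1.65-fold lower level, and it passed neither limma fit (adjusted p = 0.453, and 0.0711 with the block). It was -1.12 in A and -0.33 in B. Leaving out Gata6 null/Apc null A gave -0.41, and leaving out its batch B counterpart gave -1.04.

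Fcgbp, which encodes a large protein of the mucus layer, was the tested member whose groups overlapped. It read 8.13 and 8.74 on arrays labelled Gata6 null/Apc null, against 9.23 and 8.72 on Apc null arrays. The difference was -1.10 in A and 0.02 in B, so its mean of -0.54 comes from batch A. The mean lay between -0.84 and -0.79 when either batch B array was left out, and between -0.28 and -0.23 when either batch A array was. It passed neither limma fit (adjusted p = 0.939, and 0.328 with the block).

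Zg16, a lectin-like protein of colonic mucus, had a mean under the filter at both probe sets. The first read 3.93 and 3.39 on arrays labelled Gata6 null/Apc null, against 3.73 and 3.61 on Apc null arrays, and differed by -0.01. The second, which can match shared sequence, read 4.60 and 4.04 against 4.02 and 3.85 and differed by 0.38. Neither passed the limma fit over all probe sets (adjusted p = 1.00 for both). Near the floor such values have little order.

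**Figure D2:**
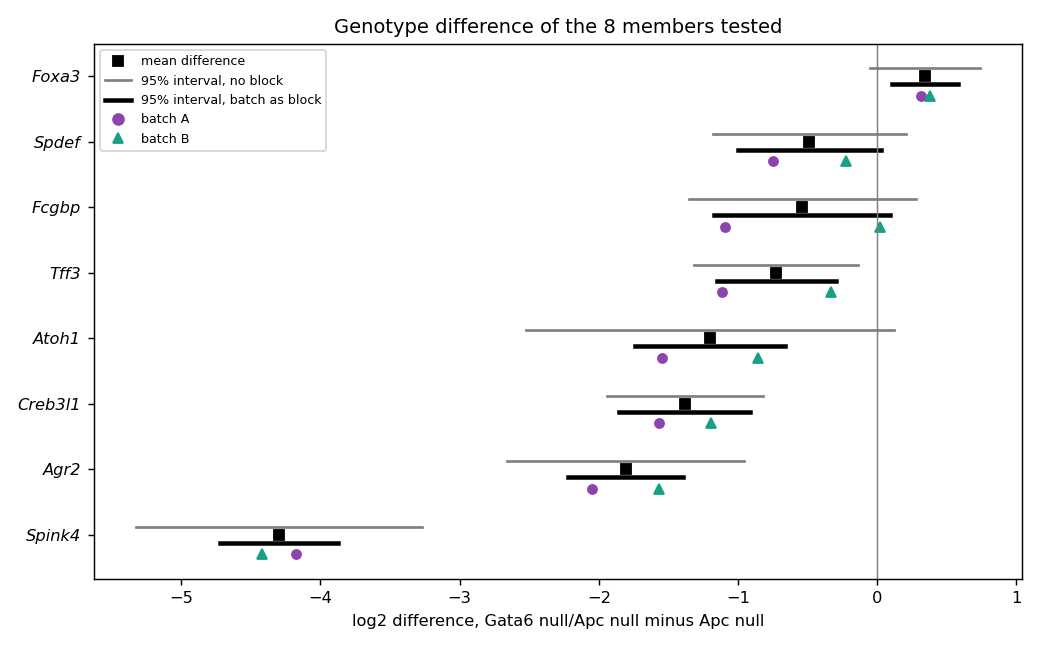
Log2 difference, Gata6 null/Apc null minus Apc null (x axis), of the 8 members tested; squares are mean differences, thin grey lines 95% intervals without a block, thick black lines 95% intervals with the batch as a block, and circles and triangles the differences within batch A and batch B. Spink4, Agr2, Creb3l1 and Atoh1 lie below -1 on average, while Foxa3 lies at 0.34.

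The differences were not of 1 size in the batches. In 6 of the 8 members tested the absolute difference was smaller in batch B, the exceptions being Spink4 and Foxa3, and 7 of 8 had the same sign in both batches. The median over the 8 was -1.33 for A and -0.59 for B. Atoh1 read lower and Agr2 higher in batch B than in batch A in both genotypes. These levels are given as values with no test. With 1 array of each genotype in a batch, whether the genotype difference itself differed between batches could not be tested.

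The other goblet cell genes were taken from a list of 28, of which 23 had a probe set and 18 were tested. Limma called 2 lower and none higher, and with the batch as a block 5 lower and none higher. Over all genes tested 0.126% were called lower and 0.522% higher, or 2.97% and 3.91% with the block. The median of the list was -0.51, and 13 of 18 had a negative difference, against 55.9% of all genes tested. Negative differences also made up most of several other epithelial lists. They were 7 of 7 Paneth and deep crypt markers, 11 of 12 absorptive colonocyte markers and 11 of 11 general epithelial markers. Enteroendocrine markers had 6 of 9 negative and tuft cell markers 3 of 7. The calls without the block were Gcnt3, which branches mucin sugar chains, and Slc12a8, of the cation chloride cotransporter family. Gcnt3 read 4.80 and 4.61 on arrays labelled Gata6 null/Apc null, against 8.83 and 8.11 on Apc null arrays (limma adjusted p = 0.0306). It did not pass once the Gata6 null/Apc null batch B array was left out (limma adjusted p = 0.0638), nor as the mean of its probe sets (0.0736). Slc12a8 differed by -2.45 (limma adjusted p = 0.0353) and did not pass whichever array was left out, at adjusted p-values of 0.0571 to 0.110. As the mean of its probe sets it differed by -1.23 and did not pass (limma adjusted p = 0.0676). Slc12a8 read 5.02 and 4.63 on arrays labelled Gata6 null/Apc null, against 7.27 and 7.27 on Apc null arrays. In both Gcnt3 and Slc12a8 the lower group was close to the filter level, so their folds depend on the array floor.

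The further calls with the block, named after their values were seen, were Guca2a, the guanylin gene, Reg4, a secreted lectin of deep crypt cells, and the chemokine gene Ccl6. Guca2a differed by -2.95 (limma adjusted p = 0.053, and 0.0011 with the block). Reg4 differed by -2.18 (0.142, and 0.0155 with the block) and Ccl6 by -1.88 (0.272, and 0.00515 with the block). Ern2, the goblet form of the IRE1 stress sensor and also named with its values known, differed by -0.60 and passed in neither fit (limma adjusted p = 0.818, and 0.103 with the block). The 5 of 18 with a positive difference, named in the same way, were Rep15 (0.37), Creb3l4 (0.33), Capn9 (0.28), St6galnac1 (0.18) and Fut2 (0.12). None of these passed in either fit.

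The transcription factors that act beside the members had no call in limma without a block among 19 tested. With it 1 was higher and 3 lower, against 3.91% and 2.97% of all genes, and the median difference was -0.01. The higher one was Gata6 itself (limma adjusted p = 0.0392 with the block). Cdx2, the caudal-type factor of intestinal identity, read 7.29 and 8.11 on arrays labelled Gata6 null/Apc null, against 9.13 and 9.41 on Apc null arrays. Its difference was -1.57 (limma adjusted p = 0.228, and 0.00545 with the block). Hnf4a, a nuclear receptor of gut epithelium, differed by -0.39 (0.44, and 0.0419 with the block). Insm1, an enteroendocrine zinc finger factor, read 3.90 and 3.49 on arrays labelled Gata6 null/Apc null, against 6.73 and 4.49 on Apc null arrays (limma adjusted p = 0.638, and 0.047 with the block). The values on arrays labelled Gata6 null/Apc null lay under the filter level of 4.45. Insm1 was thus tested only through its Apc null values, mainly that of batch A, and its call carries little weight.

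Notch genes, whose signal represses Atoh1, were mixed. Of 20 tested none was called without the block. With it 2 were higher and 2 lower, against 3.91% and 2.97% of all genes, and the median difference was -0.01. Hes6, which antagonises Hes1 activity, differed by 0.77 and the receptor gene Notch1 by 1.06 (limma adjusted p = 0.209 and 0.37, and 0.00793 and 0.0393 with the block). The ligand genes Jag1 and Dll1 differed by -1.17 and -0.80 (0.444 and 0.532, and 0.0299 and 0.0467 with the block). Hes1, the repressor that acts on Atoh1, was chosen after its values were seen. It read 7.02 and 7.41 on arrays labelled Gata6 null/Apc null, against 7.72 and 7.37 on Apc null arrays, with overlap (limma adjusted p = 1.00, and 0.508 with the block).

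Genes of protein folding and transport in the endoplasmic reticulum, where Agr2 acts, had slightly lower means. Of 29 tested 27 had a negative difference, 16 were lower without overlap and none was higher without overlap, at a median of -0.16. Over all genes tested 55.9% were negative, 17.3% lower without overlap and 14.7% higher without overlap. Limma called none without the block and 1 lower with it, against 2.97% of all genes. That was Sec24d, a coat subunit of the vesicles that leave the endoplasmic reticulum. It read 5.07 and 5.08 on arrays labelled Gata6 null/Apc null, against 6.66 and 6.26 on Apc null arrays (limma adjusted p = 0.131, and 0.0137 with the block).

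Among markers of other epithelial cells the call without the block was Lyz2, lower, and the higher calls, all of tuft cell genes, came with the block alone. Most of the genes tested passed neither fit. Over all genes tested 0.126% were called lower and 0.522% higher, or 2.97% and 3.91% with the block. Paneth and deep crypt secretory markers had 1 lower call of 7 tested, Lyz2, and 2 with the block, at a median of -0.57. Lyz2, a lysozyme gene, differed by -4.41 (limma adjusted p = 0.0243), on probes that can match shared sequence. The second with the block was the matrix metalloproteinase gene Mmp7, named after its values were seen, at -0.78 (limma adjusted p = 0.845, and 0.00688 with the block). Absorptive colonocyte markers had no call of 12 without the block and 6 lower with it (Car1, Car2, Cdhr5, Fabp2, Aqp4 and Guca2b), at a median of -0.66. Those 6 differed by -3.24 to -0.42, with limma adjusted p-values of 0.119 to 0.422 without the block and 0.000381 to 0.035 with it. Of these, Fabp2 read under the filter level on arrays labelled Gata6 null/Apc null, at 4.27 and 3.96, so it was tested only through its Apc null values. Tuft cell markers had no call of 7 without the block and 3 higher with it (Hpgds, Avil and Tuba1a), at a median of 0.20. Those 3 differed by 0.72 to 2.67, with limma adjusted p-values of 0.0968 to 0.338 without the block and 0.00467 to 0.0087 with it. The Tuba1a probe set can match shared sequence. Of the other tuft genes tested, Plcb2 (-0.25), Gng13 (-0.42) and Sh2d6 (-0.01) were negative and Il17rb (0.20) was positive. Further tuft genes, among them Dclk1 and Trpm5, were under the filter. Enteroendocrine markers had no call of 9 in either fit, and their smallest p-values belonged to Chga (-0.51) and Pcsk1n (-0.34). The part of any of these in the values of the members was not tested.

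General epithelial markers had no call of 11 without the block and 2 lower with it, against 2.97% of all genes. These were Cdx2 and the claudin gene Cldn4 (-0.81, limma adjusted p = 0.0327 with the block), and the list's median was -0.23. The mean level of that list was 10.44 and 10.48 on arrays labelled Gata6 null/Apc null, against 10.88 and 10.76 on Apc null arrays. Of the 10 fibroblast markers 4 were tested and 1, Vim, was higher (4.13, limma adjusted p = 0.0157), against 0.522% of all genes. The collagen genes Col1a1, Col1a2 and Col3a1 were under the filter. Of 12 immune markers 4 were tested, with the same Lyz2 as the only call, where 0.126% of all genes were called lower. Of 6 endothelial markers 2 were tested, Pecam1 (0.15) and Cdh5 (-0.01), with none called.

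**Figure D3:**
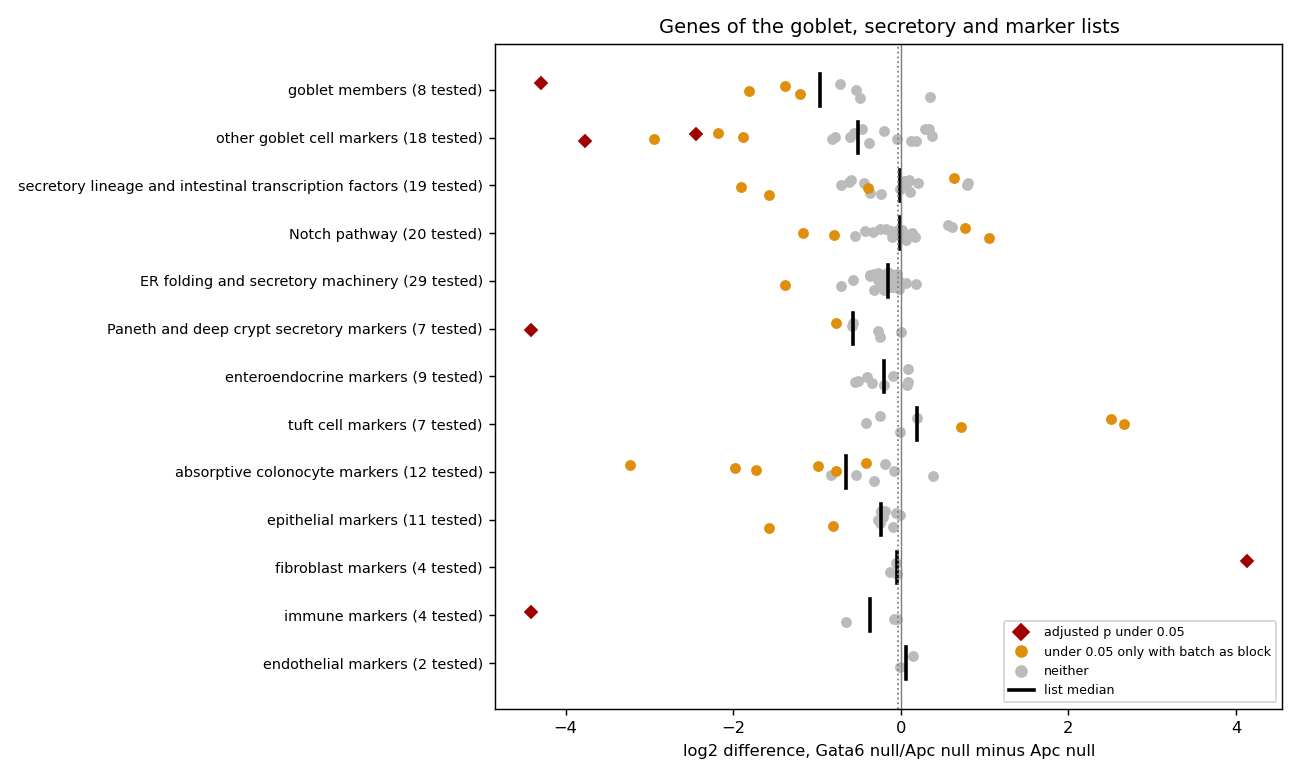
Log2 difference, Gata6 null/Apc null minus Apc null (x axis), of each gene tested in the members and in 12 other lists (rows); dark red diamonds passed an adjusted p of 0.05 in limma, orange circles passed only with the batch as a block, grey circles passed neither, black bars are list medians and the dotted line is the median of all genes tested. The members' median of -0.96 lies left of the other lists' medians, which run from -0.66 to 0.20; within batch B alone the medians of the members and of the absorptive colonocyte markers were both -0.59.

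The genes whose profile over the 4 arrays was closest to that of Spink4, the member with the smallest p, were Lyz2, Cldn2, Cftr, Gcnt3 and Tm4sf1. Closeness was the root mean square distance between log2 values centred on each gene's own mean, from 0.33 for Lyz2 to 0.71 for Tm4sf1. Over 4 arrays this mostly selects genes with a genotype difference of like size, so it is a description. Cftr read 3.68 and 3.92 on arrays labelled Gata6 null/Apc null, against 7.29 and 7.39 on Apc null arrays. The first 2 values lay under the filter level, so Cftr was tested only through its Apc null values. Tm4sf1, a membrane protein of the tetraspanin-like L6 family, read 5.82 and 6.86 on arrays labelled Gata6 null/Apc null, against 8.95 and 9.56 on Apc null arrays (limma adjusted p = 0.105, and 0.000732 with the block).

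**Figure D4:**
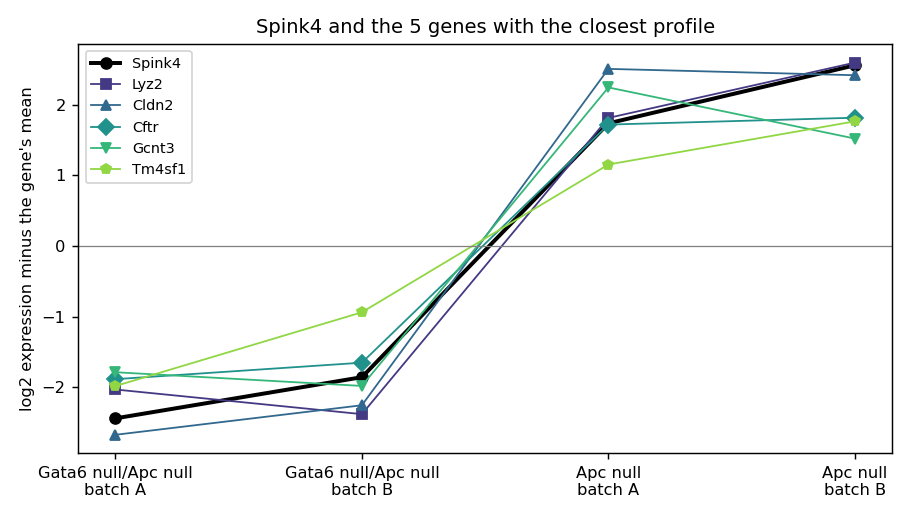
Log2 expression minus each gene's own mean over the arrays (y axis) on each of the 4 arrays (x axis) for Spink4 (black) and the 5 genes closest to it. In all 6 genes both arrays labelled Gata6 null/Apc null lie below 0 and both Apc null arrays above it. The Cftr values on arrays labelled Gata6 null/Apc null were under the filter level.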

How the data were processed

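The authors deposited log2 expression values per probe set, made with the affy implementation of RMA, per the submitters' processing notes, which give no version. RMA removes background, quantile-normalizes across arrays and summarises probes, so low values are compressed towards a floor. Per the labels' protocols, RNA with an integrity number of at least 9 was used, and 25 ng was amplified, which adds noise to dim probe sets. The number of arrays limits the precision.

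Leaving 104 controls aside, probe sets took gene names from the platform annotation (1 gene for 28898 of them). Names were checked by Entrez identifier against a RefSeq table of GRCm38.p6, and 0 changed. The probe set of highest mean stood for each gene, and genes under the 40th percentile of probe sets (4.45) were left out. A second fit used all probe sets with no filter.

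Groups came from the titles. Limma 3.58.1 in R 4.3.3 was used (lmFit, eBayes with a mean-variance trend, two-sided, threshold 0.05), with 2 residual degrees of freedom plus 2.83 from moderation. The labels give 1 array of each genotype the same batch letter, which pairs the arrays. The batch differences of the genotypes correlated at 0.675 across genes. The blocked fit had 1 residual degree of freedom plus 4.99 from moderation. It is given for each member tested and for many other genes named, also where it changes no call. The p-values measure the spread between these arrays, which may be technical. The fit was tested on simulated data whose differences were larger than those of most members. The simulated batch shifts were mostly smaller than those of members such as Atoh1. That run therefore does not show how the fit treats smaller differences or larger batch shifts.

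Members and lists were chosen with earlier results of these data known. From each other list the text names genes past the threshold (up to 6 by smallest p), or those past it with the block, or else the 2 with the smallest p. Genes outside this rule are marked, apart from the targeted gene Gata6 and the genes closest to Spink4. Epcam, Ptprc, Muc2, Clca1, Retnlb, the collagen genes and the tuft genes without a call were also named outside it, without a mark. Alternatives were the block, leaving out each array, other probe set choices, filters and moderation, and centring on array medians.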

Additional observations from a re-analysis of the deposited data

How the results depend on the processing

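With the batch as a replicate block, 464 genes were higher and 353 lower, and 4 members were lower, against 62, 15 and 1 without it. The differences themselves do not change under the block. Atoh1, Creb3l1 and Agr2 passed under the block alone, and Spdef, Foxa3, Tff3 and Fcgbp under no alternative. Centring arrays on their medians gave 103 genes higher and 25 lower. With each array left out in turn, between 24 genes (Apc null A left out) and 118 (Gata6 null/Apc null A left out) were higher, and 9 (Apc null A left out) to 12 were lower. Leaving out Apc null B gave 37 higher. The count of members lower was 1 in each. Spink4 lay between -4.71 and -3.89 in these. In the fit over all probe sets, it passed when either Apc null array, A (limma adjusted p = 0.0288) or B (0.0385), was left out. There the near-zero differences of Gfi1 and of the first Zg16 probe set changed sign, to 0.11 and 0.26 with Gata6 null/Apc null B left out and to 0.04 and 0.05 with Apc null A left out. Over all arrays left out, they ran from -0.21 to 0.11 for Gfi1 and from -0.28 to 0.26 for Zg16. The cause was not tested. With no filter the median difference over all 10 members was -0.63. Signal near the floor limits what Gfi1, Zg16 and the lower groups of Spink4 and Creb3l1 can show.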
